A study of Homo sapiens with 9 samples.

Results

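NKX2-1 and the protein-coding genes that neighbour it on chromosome 14 were examined for peaks of histone acetylation and for peaks of the antibody against the NKX2-1 protein. The 4 genes, MBIP, NKX2-1, NKX2-8 and PAX9, were chosen by name and position, out of 20037 protein-coding genes in the RefSeq table. For each gene the window was the gene body and 100 kb to each side. The 4 windows merged into a region of 580.8 kb (chromosome 14, 36198564 to 36779362, GRCh38). SLC25A21, a mitochondrial carrier gene, also reached into this region, which held 6 long non-coding RNA (lncRNA) genes and 6 pseudogenes as well.

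NKX2-1, also called TTF1, is a homeodomain transcription factor of the lung, the thyroid and the ventral forebrain. It is silent in normal T cells, and in a subset of T-cell acute lymphoblastic leukaemia (T-ALL) it is switched on ectopically, often by a rearrangement that places it next to T-cell receptor sequences. NKX2-8 is a related homeodomain factor, PAX9 is a paired-box factor of the pharyngeal pouches, the thymus and the teeth, and MBIP is a subunit of the ATAC histone acetyltransferase complex. Acetylation of lysine 27 of histone H3 (H3K27ac) marks active promoters and enhancers.

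All 9 libraries were ChIP-seq libraries, made by sequencing the chromatin fragments that an antibody recovers, from RPMI-8402, an established human T-ALL cell line. The antibody against NKX2-1 was used on clones WT10, WT13, WT28 and WT30, all 4 of wild-type (WT) genotype. It was also used on C12, C15, S04 and S36, 4 clones whose genotype is given as NKX2-1 and which the series design describes as knockouts (KO). The H3K27ac library is 1 library without a replicate. Its genotype is also given as NKX2-1, and no clone is named for it, so whether its cells carried an intact NKX2-1 gene is not given. Each clone gave 1 library, so the p-values below measure the spread between these libraries, which may be technical. The peak lists show no deletion, so the genotypes of the clones could not be checked from them.

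The H3K27ac list held 9857 peaks on chromosomes 1 to 22, X and Y, of which 314 lay on chromosome 14. The NKX2-1 antibody lists held 742 to 1144 peaks per library, of which 1 to 7 lay on chromosome 14. The depth of all libraries is unknown because peak lists hold no reads, and a site without a peak may have been missed for lack of reads. Of the defining T-cell genes, 6 of 8 carried H3K27ac in the gene body or 10 kb to each side: CD3D, CD3E, CD3G, CD247, LCK and PTPRC did, and CD2 and CD7 did not. The same held for 1 of 4 B-cell genes (CD79A), 2 of 4 myeloid genes (LYZ and CD14), 0 of 4 lung epithelial genes, 2 of 4 thyroid genes and 1 of 4 epithelial genes (CDH1). Over all protein-coding genes the share in this window was 29.0%. The marker lists are small and were not tested against it.

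The promoters below are shown because the H3K27ac peaks of the locus were placed around the start sites of NKX2-1, whereas none was called near that of MBIP. Each sequence is RefSeq, assembly GRCh38.p14, 5′ to 3′ on the strand of its gene, from 250 bases before to 50 bases after the start. RefSeq lists 2 start sites for NKX2-1. In the promoter of its downstream start (chr14:36519507-36519806, minus strand) capitals mark CAAGTG, a form of the core that NKX2 homeodomains recognise.
NKX2-1, downstream start: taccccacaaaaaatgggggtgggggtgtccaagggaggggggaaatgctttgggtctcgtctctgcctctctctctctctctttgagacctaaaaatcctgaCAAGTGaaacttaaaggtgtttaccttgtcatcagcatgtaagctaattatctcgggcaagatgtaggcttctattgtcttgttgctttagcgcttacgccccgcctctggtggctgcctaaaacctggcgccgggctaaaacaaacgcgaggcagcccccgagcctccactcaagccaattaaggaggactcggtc
The promoter of the upstream start (chr14:36520183-36520482, minus strand) held none of the motifs searched and has no capitals.
NKX2-1, upstream start: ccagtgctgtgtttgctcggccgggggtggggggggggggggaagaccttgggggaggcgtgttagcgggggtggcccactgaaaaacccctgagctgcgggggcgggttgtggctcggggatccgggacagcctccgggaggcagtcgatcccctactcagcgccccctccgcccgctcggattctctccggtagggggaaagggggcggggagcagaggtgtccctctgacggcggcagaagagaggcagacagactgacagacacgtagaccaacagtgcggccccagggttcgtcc
In the promoter of NKX2-1-AS1, the antisense lncRNA that starts within NKX2-1 (chr14:36519028-36519327, plus strand), capitals mark the 163 bases that lie in an H3K27ac peak.
NKX2-1-AS1: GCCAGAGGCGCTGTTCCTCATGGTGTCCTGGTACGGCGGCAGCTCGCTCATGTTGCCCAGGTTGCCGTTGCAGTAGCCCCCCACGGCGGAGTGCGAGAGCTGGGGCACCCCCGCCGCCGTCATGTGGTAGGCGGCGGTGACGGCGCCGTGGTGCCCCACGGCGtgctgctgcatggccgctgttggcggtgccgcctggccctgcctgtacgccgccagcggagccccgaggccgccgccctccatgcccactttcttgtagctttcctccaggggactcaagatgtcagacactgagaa
In the promoter of MBIP (chr14:36320588-36320887, minus strand) capitals mark a RUNX-type TGTGGT and a CACTT, which is AAGTG on the other strand.
MBIP: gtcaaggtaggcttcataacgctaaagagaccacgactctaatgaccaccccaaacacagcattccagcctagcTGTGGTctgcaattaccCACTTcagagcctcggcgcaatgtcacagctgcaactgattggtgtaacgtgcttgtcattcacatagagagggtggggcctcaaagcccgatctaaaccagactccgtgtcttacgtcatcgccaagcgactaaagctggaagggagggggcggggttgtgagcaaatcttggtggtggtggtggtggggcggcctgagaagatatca

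The base composition of these promoters differed. The upstream NKX2-1 promoter and that of NKX2-1-AS1 were each 69.0% G and C, with 21 and 27 CpG dinucleotides. The downstream NKX2-1 promoter was 52.0% G and C with 11 CpGs, and that of MBIP was 53.7% with 12. The promoter of NKX2-8 was 64.0% G and C with 17 CpGs, and the 2 promoters of PAX9 were 51.0% with 19 and 54.0% with 12. Over all 22183 protein-coding promoters in the table the median was 62.3% with 21 CpGs.

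Of the motifs searched on both strands, AAGTG occurred in 40.7% of those promoters and CAAGTG, which contains AAGTG, in 10.4%. TGTGGT occurred in 11.3% and TGCGGT in 8.53%. The CAAGTG of the downstream NKX2-1 promoter began 147 bases before the start. NKX2-8 had AAGTG once, NKX2-1-AS1 had TGTGGT and AAGTG once each, and both PAX9 promoters had none of these motifs. A match of letters is a description of the sequence and shows no binding.

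H3K27ac at the locus was concentrated on NKX2-1. Within 10 kb of the gene bodies NKX2-1 had 4 peaks, PAX9 had 1 and MBIP and NKX2-8 had 0. Thus 2 of the 4 genes were marked, where 29.0% of all protein-coding genes were. A count of 4 or more peaks in that window, as at NKX2-1, was reached by 3.19% of genes. Within 1 kb NKX2-1 had 3 peaks and the other 3 genes had 0, and 23.7% of all genes had at least 1. These are values of 1 library, and no difference between genes was tested.

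The 4 peaks at NKX2-1 (chromosome 14, 36516397 to 36520232, minus strand, 3836 bp) differed in size. The widest and strongest, 36518304 to 36518826, was 523 bp wide and lay inside the gene. Its fold enrichment over the peak caller's background, which is the authors' value throughout, was 6.92, with a −log10 q-value of 6.30. A second peak inside the gene, 36518952 to 36519190, began after 125 bp without a peak, was 239 bp wide and had a fold of 5.21 and a −log10 q of 3.67. Both also lay within SFTA3, a lncRNA gene that overlaps NKX2-1. The second of these holds the capitals of the NKX2-1-AS1 promoter shown above. Whether they are exonic or intronic was not determined, since the gene table used here gives no exons.

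The peak on the upstream side of NKX2-1, 36520533 to 36520837, was 305 bp wide and lay within NKX2-1-AS1. Its fold of 4.72 and −log10 q of 2.46 were the lowest of the locus. On the other side, 6641 bp beyond the 3′ end of NKX2-1 and within SFTA3, the peak 36509531 to 36509756 was 226 bp wide with a fold of 5.21 and a −log10 q of 3.67. Of these 4 peaks only the widest had a −log10 q of 5 or more.

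**Figure D1:**
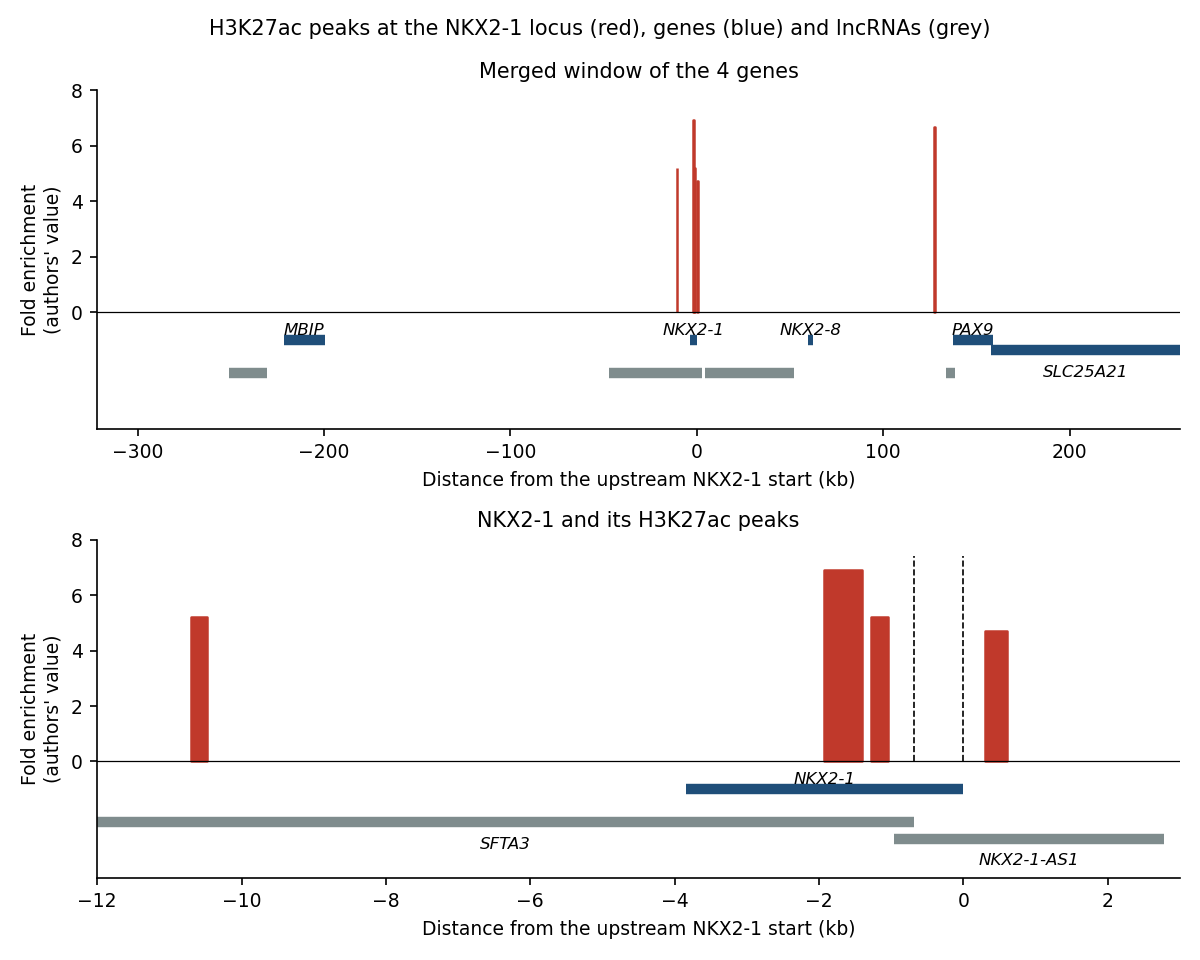
H3K27ac peaks (red, height is the authors' fold enrichment, width is to scale) against distance in kb from the upstream NKX2-1 start, over the merged window (top) and around NKX2-1 (bottom), with protein-coding genes in blue and lncRNA genes in grey. The 4 peaks at NKX2-1 stand on either side of its start sites (dashed lines), the fifth stands before PAX9, and none stands near MBIP or NKX2-8.

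Neither NKX2-1 start site lay in a peak. The starts, at 36519556 and 36520232, are 676 bp apart, and both fell in a stretch of 1342 bp without H3K27ac between the second peak inside the gene and the upstream peak. The former ended 366 bp from the downstream start and the latter began 301 bp from the upstream start. The start of NKX2-1-AS1 lay 88 bp from the peak that covers part of its promoter. Among all protein-coding promoters, 19.3% had H3K27ac within 1 kb of the start. The share was 27% of the CpG-rich promoters, defined here as at least 50% G and C with an observed to expected CpG ratio of at least 0.6, and 7.88% of the others. The upstream NKX2-1 promoter, with a ratio of 0.615, was CpG-rich by this definition, and the downstream promoter, with 0.542, was not.

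By enrichment the peaks at NKX2-1 were ordinary or weak members of the list. The median fold of the 9857 H3K27ac peaks was 6.19, the median −log10 q was 4.92 and the median width was 391 bp. The widest NKX2-1 peak stood above all 3 medians, and 35.0% of peaks had a fold at least as high. For the second peak inside the gene and the peak in SFTA3 this share was 88.0%, and for the upstream peak 98.0%. The last 3 peaks were also narrower than the median. The highest fold in the list was 27.7.

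**Figure D2:**
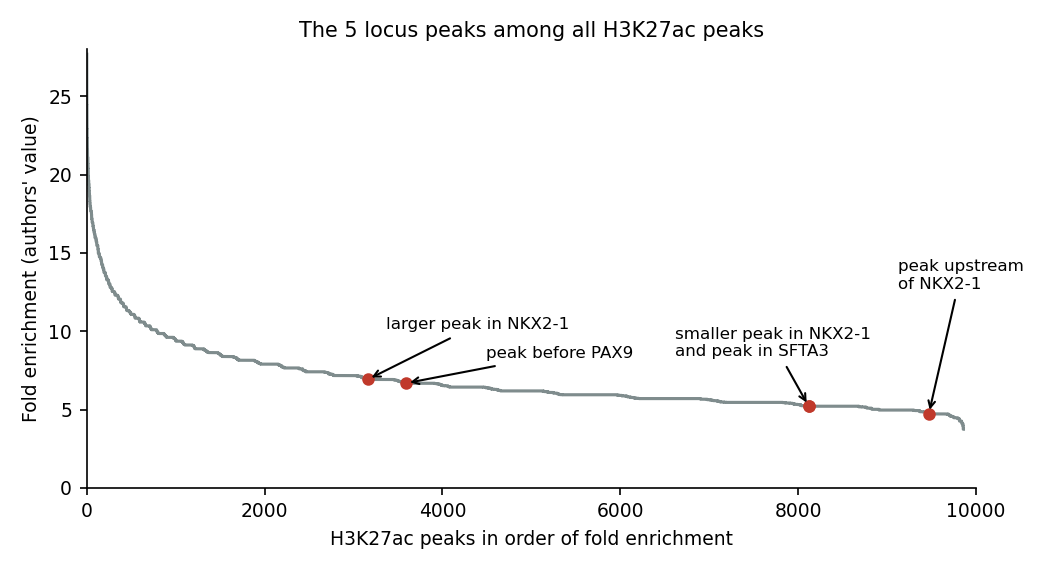
Authors' fold enrichment of all 9857 H3K27ac peaks (grey line) in descending order, with the 5 peaks of the locus as red points; 2 of them share a fold of 5.21 and the same point. The widest NKX2-1 peak (6.92) and the peak before PAX9 (6.68) stand above the median of 6.19, and the other 3 stand below it.

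NKX2-8 (chromosome 14, 36580004 to 36582614, minus strand, 2611 bp) had no H3K27ac peak in or near it. Its nearest peak was the upstream peak of NKX2-1, at 59.2 kb, and the nearest on its other side was 64919 bp away, before PAX9. Its 100 kb window nevertheless held 5 peaks, because the windows of neighbouring genes overlap and it took in all 4 peaks of NKX2-1. The gene lay in a stretch of 126.7 kb without H3K27ac. Of all gaps between consecutive H3K27ac peaks, 28.6% were at least as long.

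PAX9 (chromosome 14, 36657568 to 36679362, plus strand, 21795 bp) had 1 peak in its window. It spanned 36647533 to 36647827, 295 bp, in no annotated gene, and ended 9741 bp before the start of PAX9. Its fold of 6.68 was matched or exceeded by 39.7% of the list. Its −log10 q of 6.30 was that of 878 peaks of the list, the widest NKX2-1 peak among them. The nearest gene of any kind was the lncRNA LOC105370455, 5965 bp away. From this peak to the next on that side, 2522.5 kb held no H3K27ac, and 2.65% of gaps between peaks were at least as long. On chromosome 14 the gap ranked 8 of 313. PAX9 itself and SLC25A21 lay wholly inside it, together with MIPOL1, FOXA1 (a forkhead factor of endodermal tissues), TTC6, SSTR1 (a somatostatin receptor), CLEC14A, SEC23A and GEMIN2.

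MBIP (chromosome 14, 36298564 to 36320637, minus strand, 22074 bp) had 0 H3K27ac peaks in its window, a state shared with 43.2% of protein-coding genes. Its nearest peak was the peak in SFTA3, at 188.9 kb. MBIP and BRMS1L lay in a stretch of 700.5 kb without H3K27ac (35809000 to 36509531), and 10.1% of gaps were at least as long. The median gap was 16.6 kb over all chromosomes and 9.17 kb on chromosome 14. The latter includes a dense stretch of peaks between 105880108 and 106875105, far from the locus.

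Counted over the 100 kb windows, 3 of the 4 genes had H3K27ac, where 56.8% of protein-coding genes did. The 4 peaks of NKX2-1, covering 1293 bp, were equalled or exceeded in number by 17.4% of genes and in base pairs by 23.9%. NKX2-8 had 5 peaks and 1588 bp, where 2508 genes had 5 or more peaks and 19.7% of genes had as many base pairs. For PAX9, with 1 peak and 295 bp, the shares were 56.8% and 50.7%. The order therefore depended on the window, since NKX2-8 came first at 100 kb and had 0 peaks at 10 kb. These windows share peaks, so the 4 values are not separate measurements.

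**Figure D3:**
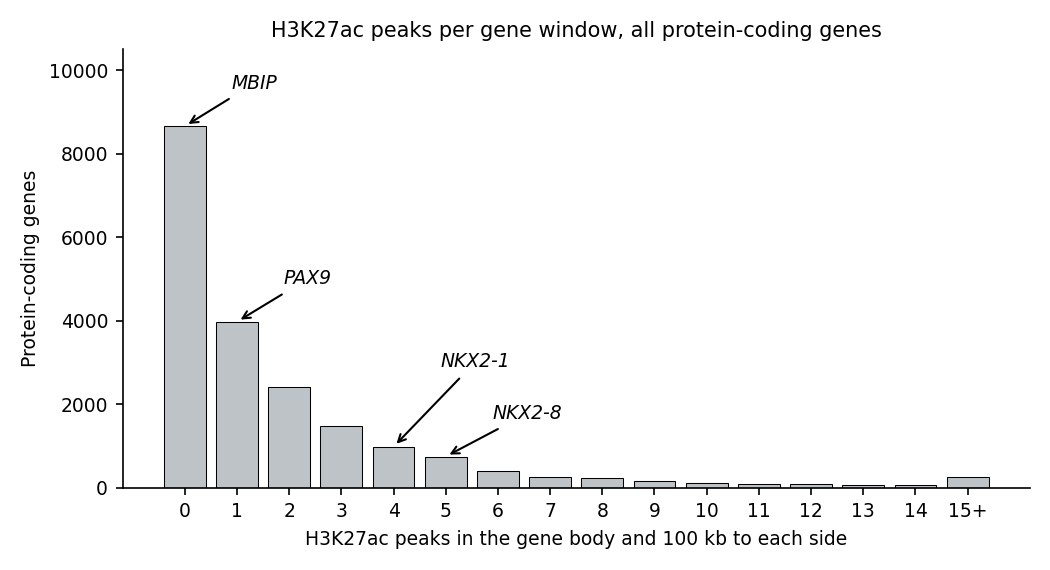
Number of protein-coding genes (vertical axis) by the number of H3K27ac peaks in the gene body and 100 kb to each side (horizontal axis, the last bar holds all higher counts), with arrows at the bars of the 4 genes. MBIP falls in the bar of 8658 genes with 0 peaks, PAX9 has 1, NKX2-1 has 4 and NKX2-8 has 5.

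Neighbouring H3K27ac peaks were joined into clusters across short gaps, up to the limit stated with the processing, which gave 5140 clusters. The 4 peaks of NKX2-1 formed 1 cluster of 11.3 kb (36509531 to 36520837), and the peak before PAX9 stood alone. A count of 4 or more peaks was found in 507 clusters, 9.86% of all. By base pairs covered, 21.5% of clusters were at least as large as that at NKX2-1, and by the fold of the strongest peak 47.5% were at least as high. Among the 171 clusters of exactly 4 peaks, the median covered 2027 bp (range 948 to 6815) and the median strongest fold was 8.17. Of these, 84.8% covered at least as much as the NKX2-1 cluster and 80.7% reached at least its fold. By covered length and strongest fold the NKX2-1 cluster was thus in the lower range of those with 4 peaks. The number of peaks rested on weak ones, since with a −log10 q of 5 or more the cluster was 1 peak and 100% of clusters had as many.

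H3K27ac in the gene body or 10 kb to each side was next counted over the families of the 4 genes, where 29.0% of all protein-coding genes were marked. Of 14 NKX homeobox genes, 2 (14.3%) were marked, NKX2-1 among them with its 1293 bp. Of 9 PAX genes, 2 (22.2%) were marked. PAX7, a factor of muscle stem cells, had 1 peak covering 212 bp with a fold of 6.28, and PAX9 had 260 bp of its peak within 10 kb.

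Of the 13 genes of the ATAC complex, 7 (53.8%) were marked, and MBIP was not among them. WDR5, a scaffold of histone-modifying complexes, had 5 peaks covering 1979 bp with a highest fold of 8.14. The adaptor gene TADA3 had 1069 bp and 10.5, and the zinc-finger subunit gene ZZZ3 had 875 bp and 6.43. KAT2A, which encodes an acetyltransferase of the complex, had 568 bp and 7.16, POLE3 had 527 bp and 4.93, and YEATS2, whose product reads acylated histones, had 417 bp and 6.52. The median over the 13 genes was 1 peak and over all protein-coding genes 0. The lists are small, and their shares were not tested against the rest.

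Along the chromosome, 4 of 14 genes between NFKBIA and CLEC14A (28.6%) were marked, a share near the 29.0% of all genes. These were NFKBIA, the inhibitor of NF-κB, with a fold of 7.48, RALGAPA1 with 5.45, NKX2-1 and PAX9. The nearest peak lay 17.3 kb from BRMS1L, 30.1 kb from SLC25A21 and 129.6 kb from INSM2. On the far side of SLC25A21 the distance rose to 550.1 kb for MIPOL1 and to between 914.2 and 957.2 kb for CLEC14A, FOXA1, TTC6 and SSTR1.

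**Figure D4:**
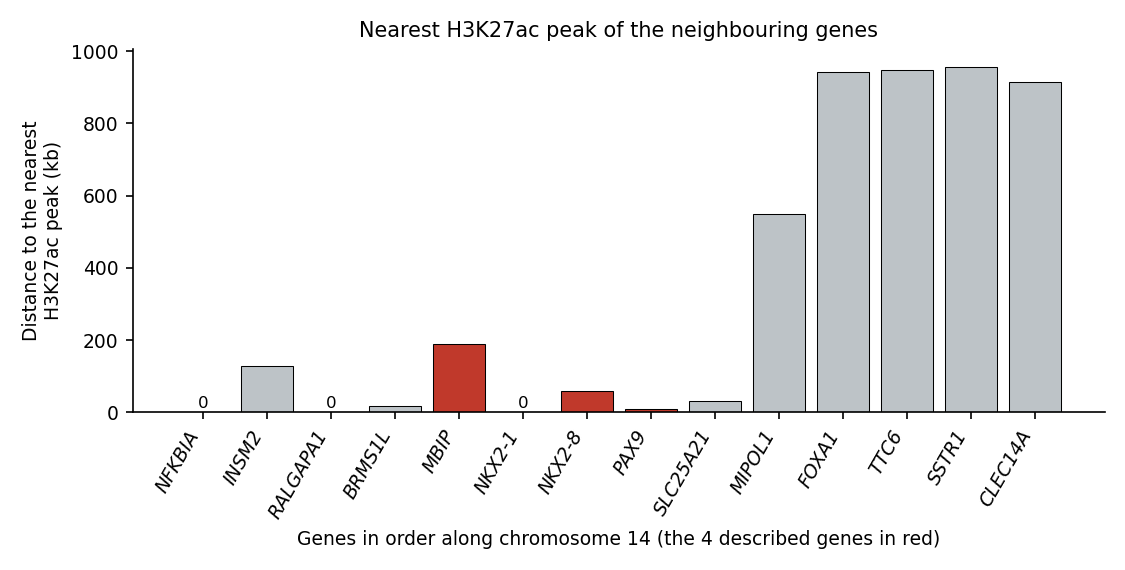
Distance in kb from each gene body to its nearest H3K27ac peak, for 14 genes in their order along chromosome 14, with the 4 described genes in red; 0 means that a peak lies in the gene. NKX2-1 is at 0, PAX9 at 9.74, NKX2-8 at 59.2 and MBIP at 188.9 kb, and the 5 genes beyond SLC25A21 are all above 550 kb.

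The NKX2-1 antibody gave no peak at any of the 4 genes. In the merged window 0 peaks were called in C12, C15, S04, S36, WT10, WT13, WT28 and WT30, and 0 in the authors' combined list and in their list of WT-only regions. All values were equal, so no test could be made. Windows without a call were the usual state for protein-coding genes. A peak in the gene body or 100 kb to each side was found for 1.82% of genes in C12, 1.55% in C15, 1.38% in S04, 5.25% in S36, 4.88% in WT10, 0.983% in WT13, 2.35% in WT28 and 1.64% in WT30. The share was 2.71% for the combined list, 3.85% for the WT-only list and 9.02% for any of the 8 libraries. The 0 of 4 genes here is therefore near the background in each list. With no antibody peak in the merged window, none of the 5 H3K27ac peaks there could overlap one, so this is not a separate result.

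The nearest antibody peak to each of the 4 genes was the same site in 7 libraries, within AKAP6, which encodes an anchor of protein kinase A (chromosome 14, 32329298 to 32837684). In C12 this peak spanned 32484898 to 32485258, and in the 8 libraries it was 347 to 361 bp wide. Its fold was 18.0 in C12, 17.6 in C15, 10.0 in S04 and 14.7 in S36, and 15.1 in WT10, 10.8 in WT13, 13.9 in WT28 and 15.3 in WT30. The site was thus called in all 4 KO and all 4 WT libraries, with folds that overlapped between the genotypes and that are not comparable in size across libraries. It carried no H3K27ac peak and lay 4031139 to 4031144 bp from NKX2-1.

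In WT10 the nearest peak was closer and lay within PSMA6, a proteasome subunit gene (chromosome 14, 35278558 to 35317493). The peak, 35292059 to 35292292, had a fold of 5.16 and a −log10 q of 6.52, and it appears in the WT-only list. It overlapped an H3K27ac peak of fold 8.87 (35292185 to 35293040) by 108 bp. Its distance was 1006.3 kb from MBIP, 1224.1 kb from NKX2-1, 1287.7 kb from NKX2-8 and 1365.3 kb from PAX9. WT10 was also the library with the most peaks, 1144 against 742 to 934 in the other 7, and the part of this in the result was not tested.

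**Figure D5:**
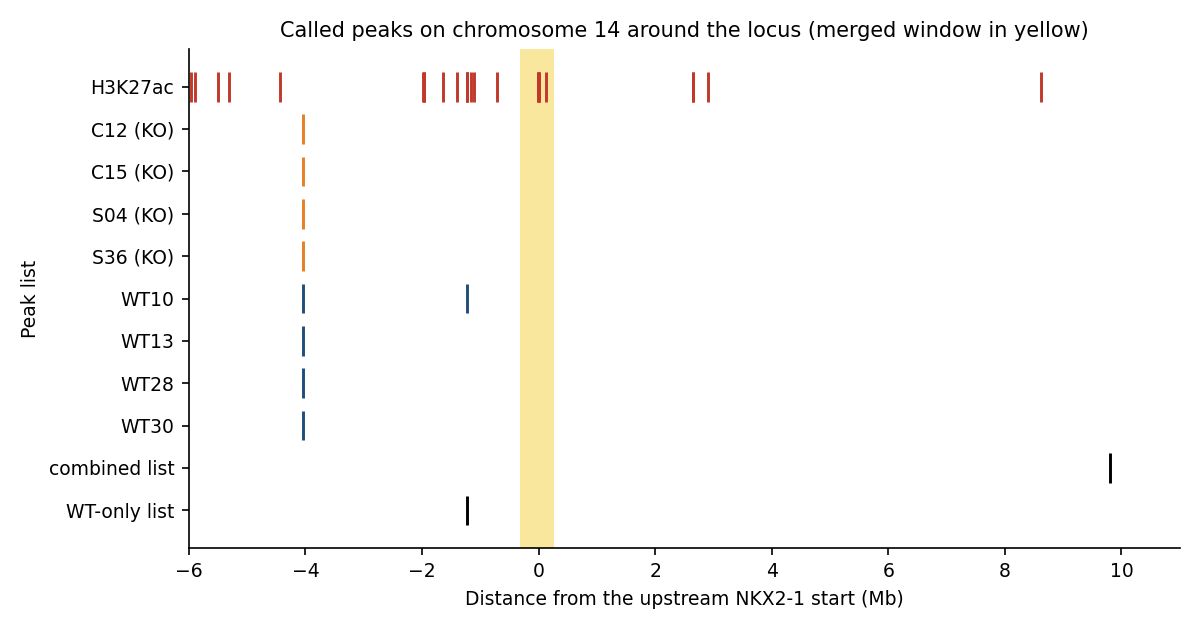
Called peaks on chromosome 14 by distance in Mb from the upstream NKX2-1 start, with 1 row for each peak list (H3K27ac red, KO libraries orange, WT libraries blue, the authors' combined and WT-only lists black) and the merged window in yellow. The merged window holds H3K27ac peaks alone, the site in AKAP6 recurs in all 8 antibody libraries, and the peak in PSMA6 appears in WT10 and the WT-only list.

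The distance from NKX2-1 to the nearest antibody peak was 4031.1 kb ± 0.00141 (SD, n = 4) in KO and 3329.4 kb ± 1403.5 (SD, n = 4) in WT libraries. The difference of -701.8 kb (WT minus KO) came from WT10, and it was 0.00167 kb without that library. The distances of the other 3 genes differed by the same amount, with means of 4094.7 kb in KO and 3393.0 kb in WT for NKX2-8, 4172.3 and 3470.6 kb for PAX9, and 3813.3 and 3111.5 kb for MBIP. In each of these comparisons p was 0.914 in a two-sided exact permutation test over 70 assignments (adjusted p = 1.00, Benjamini-Hochberg over 6 tests). With 4 libraries against 4 this test cannot go below 0.0286 for any values. For these distances it could not come near that floor. Apart from WT10 the distances from NKX2-1 were 4031139 to 4031144 bp, so every assignment gave a difference of nearly the same size. The p therefore rests on a few bp of peak edges and could not show a difference between genotypes. Since the 4 genes share their nearest peak, the 4 tests are not independent.

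Within 1 Mb of the merged window, WT10 had 1 peak and the other 7 libraries had 0 (exact permutation p = 1.00, adjusted p = 1.00). With a peak in WT10 alone, every assignment gives a difference of the same size, so this test could not show one between genotypes. On chromosome 14 as a whole C12, C15 and S04 had 2 peaks each and S36 had 6, and WT10 had 7, WT13 had 1 and WT28 and WT30 had 2 each. The means were 3 ± 2 (SD, n = 4) in KO and 3 ± 2.71 (SD, n = 4) in WT, and the exact permutation test gave p = 1.00 and an adjusted p of 1.00. These peaks made up 0.135% to 0.642% of each library's list, whereas chromosome 14 holds 3.02% of protein-coding genes and 3.19% of the H3K27ac peaks. Many of the H3K27ac peaks of chromosome 14 lay close together between 105880108 and 106875105, far from the locus. In the authors' lists the share of peaks on chromosome 14 was higher than in the libraries, 1.44% of the combined list and 1.21% of the WT-only list. All these shares rest on few antibody peaks, and their differences were not tested.

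The 24 antibody peaks on chromosome 14 fell into 15 regions. The site in AKAP6 was called in all 8 libraries and 13 regions were called in 1 library each. By genotype, 2 regions were called in both, 6 in WT alone and 7 in KO alone. Most of those called in a single genotype came from WT10 or S36, the libraries with the most peaks of their genotype (1144 and 934). The same shares were not taken over all chromosomes, so these counts describe no difference between genotypes, and none was tested. Besides the peak in PSMA6, 2 antibody peaks overlapped H3K27ac. In WT10 the peak 98198466 to 98198772, with a fold of 5.65, lay 970515 bp from BCL11B, a T-cell transcription factor gene, and overlapped an H3K27ac peak of fold 9.85 by 299 bp. In S36 a peak of fold 7.16 within EVL (100068667 to 100068880) overlapped an H3K27ac peak of fold 8.63.

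On the PAX9 side of the locus the nearest antibody peaks were far away and differed between libraries. In S36 the nearest was 18.9 Mb from the merged window, by KTN1, in WT10 it was 54.9 Mb away within CATSPERB, and in C12 it was 65.7 Mb away by ANKRD9. The other 5 libraries had no peak on that side. In the combined list the nearest was 9.54 Mb away (46323147 to 46323346, fold 4.36), 327664 bp from RPL10L, and it was called in none of the 8 libraries.

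Antibody peaks in the gene body or 10 kb to each side were found for 1 gene in each of the 3 families, where 2.59% of all protein-coding genes had a peak in any of the 8 libraries. Among the 14 NKX genes NKX1-1 had 1, in WT10, 5220 bp away with a fold of 8.72 (chromosome 4, 1397465 to 1397712), which is also in the WT-only list. Among the 9 PAX genes PAX7 had 1, in S36 and within the gene, with a fold of 8.48 (chromosome 1, 18667217 to 18667597). Among the 13 ATAC genes WDR5 had 1, in S36, 4868 bp away with a fold of 6.11 (chromosome 9, 134164836 to 134165111). The 14 genes from NFKBIA to CLEC14A had 0. In this window each of these calls was made in 1 of the 8 libraries and so had no replicate. Farther from NKX1-1, within 100 kb, S04, S36, WT13 and WT30 also had a peak each. Those of S04 (1434361 to 1434661, fold 5.76) and S36 (1434440 to 1434689, fold 5.65) overlapped, and those of WT30 and WT13 lay 28839 and 35403 bp from the gene. NKX1-1 thus had calls in both genotypes within 100 kb, in 5 of the 8 libraries, but only those of S04 and S36 were at the same site. How many genes had calls in as many libraries at 100 kb was not counted. The differences of the shares at 10 kb from those of all genes were not tested.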

How the data were processed

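The files were lists of called peaks for 8 NKX2-1 antibody libraries and 1 H3K27ac library of RPMI-8402 cells, a combined list and a list of WT-only regions. Per the submitters' processing notes, reads were handled with Bowtie2, SAMtools, FastQC, deepTools and MACS2 on hg38. Versions, parameters, the control, and which libraries entered the combined list are not given in the sources used here. Each deposited peak has a fold enrichment (a ratio), a −log10 q-value, a −log10 p-value (not used) and a score (not used), all as the authors' peak caller gave them. They served to describe a peak or to order and select the peaks of the same list. Depth is unknown, since no reads or counts are in the lists.

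The peaks of the 22 autosomes, X and Y were matched by an overlap of at least 1 bp to genes of a RefSeq table for GRCh38.p14, which is the assembly of hg38. All 4 genes and all listed genes matched. Coordinates are 1-based. Clusters joined peaks at most 12.5 kb apart. Means of the 4 WT and the 4 KO libraries were compared by exact permutation, two-sided, with Benjamini-Hochberg adjustment over the 6 tests that could be run and a threshold of 0.05. H3K27ac has 1 library and no test. The counting was tested on simulated data. Alternatives were other windows, stricter −log10 q, peak summits, other cluster gaps and leaving out each library. The 4 genes and all lists were chosen with earlier results of these data known. Named genes are the 4 genes, genes reaching into the merged window, list members with H3K27ac in the gene body or 10 kb to each side (at most the 6 with the most base pairs), and the genes nearest to the nearest antibody peak on each side. Some genes that the rule names are not reported here. BCL11B, EVL, BRMS1L, INSM2 and the genes in the long gap were named after their values were seen. Python 3.11.15, NumPy 2.4.6, pandas 2.3.3 and matplotlib 3.10.9 were used.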

Additional observations from a re-analysis of the deposited data

Results flagged for a closer look

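In groups of 4 libraries, a value was picked out when its gap to the nearest other value, divided by the range of the group, was above Dixon's 95% critical value. This picks out about 5% of groups by chance where values are continuous, and 11 groups were examined. That rate does not hold here, since with 3 equal or nearly equal values any other value is picked out. WT10 was picked out for its distance to the nearest NKX2-1 antibody peak, which was 1224.1 kb from NKX2-1, 1287.7 kb from NKX2-8, 1365.3 kb from PAX9 and 1006.3 kb from MBIP. The same peak, in PSMA6, gives all 4 values, and it also gives the 1 peak of WT10 within 1 Mb of the merged window, where the other 3 WT libraries had 0. WT10 had 7 peaks on chromosome 14, against 1 to 2 in the other WT libraries, and S36 had 6, against 2 in each of the other KO libraries. WT10 and S36 also had the most peaks of their genotype over all chromosomes, 1144 and 934, and the part of this in the counts was not tested.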

How the results depend on the processing

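The comparisons of WT with KO gave 79 values under alternatives. Where all libraries had the same count, as always in the merged window, no test was run. Where a test was run, no adjusted p was below 0.05 (exact permutation tests, adjusted p from 0.464 to 1.00). The difference in distance changed sign for all 4 genes, from -701.8 kb to 0.00150 kb with a −log10 q of 10 or more, and to 0.00167 kb without WT10. Leaving out 1 library at a time gave -935.7 to 0.00167 kb for each distance, 0 to 0.333 for peaks within 1 Mb, -1.33 to 1.00 for peaks on chromosome 14 and 0 for the merged window, which was also empty with the other windows. No paired analysis was possible because the clone names carry no numbers shared between WT and KO.

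H3K27ac counts moved with the window and the threshold. NKX2-8 had 0 peaks at 10 and 50 kb. At 250 kb MBIP had 4 and PAX9 had 5. With a −log10 q of 5 or more NKX2-1 had 1 and NKX2-8 had 2, and with 10 or more NKX2-1, NKX2-8 and PAX9 had 0.

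The shares of genes with at least as many peaks and at least as many base pairs moved as follows. At 10 kb they were 3.19% and 6.48% for NKX2-1, 29.0% and 25.4% for PAX9 and 100% for NKX2-8. At 50 kb they were 9.46% and 14.8% for NKX2-1, 44.8% and 39.0% for PAX9 and 100% for NKX2-8. At 250 kb they were 36.7% and 43.9% for MBIP and 29.9% and 38.7% for each of NKX2-1, NKX2-8 and PAX9. With a −log10 q of 5 or more they were 39.4% and 31.3% for NKX2-1, 18.6% and 23.4% for NKX2-8, and 39.4% and 38.3% for PAX9. With 10 or more they were 100% for NKX2-1, NKX2-8 and PAX9, which then had 0 peaks.

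With gaps of 5 kb joined the NKX2-1 cluster held 3 peaks, and 14.9% of clusters had at least as many. With 25 kb it held 4, and this share was 12%. With a −log10 q of 5 or more the cluster was 1 peak, and 100% of clusters had as many. With 10 or more NKX2-1 had no cluster. At 1 kb 1 of 9 PAX genes was marked, where 23.7% of all genes were. At 100 kb 8 of 14 NKX genes, 4 of 9 PAX genes and 7 of 14 genes along chromosome 14 were, where 56.8% of all genes were. With a −log10 q of 5 or more 1 PAX gene was marked (17.3% of all genes). With 10 or more 1 NKX gene, 0 PAX genes, 1 of 13 ATAC genes and 0 genes along chromosome 14 were (6.17% of all genes). Peak summits in place of edges were tried for the merged window, the distances and the windows of the 4 genes, and these kept their sign and side of the threshold or moved by less than the limit set; they were not tried for clusters and lists. Peak lists without reads limit each 0 to the depth of its library.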
